A study of Homo sapiens with 6 samples.

Results

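The genes that make and use nicotinamide adenine dinucleotide (NAD) were followed in HEK293T cells with and without valproic acid (VPA). The set held 10 of the 47470 genes listed in the count files. NMNAT2 was chosen by its counts in these same libraries, where it was much higher after VPA, and the other 9 were named for their place in NAD metabolism (NMNAT1, NMNAT3, NAMPT, NAPRT, NADSYN1, NMRK1, QPRT, SARM1 and NNMT). The difference of NMNAT2 between the conditions is therefore given as a description, without a test.

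RNA-seq had been performed on wild-type HEK293T cells, which descend from human embryonic kidney and express the large T antigen of SV40. The untreated group (n = 3) had received nothing. The VPA-treated group (n = 3) had been kept in 1 mM VPA for 1 day. VPA is an antiepileptic drug that inhibits histone deacetylases. The 6 libraries come from 1 cell line and 1 dose and time, and no label says that replicates were separate cultures, so p-values measure the spread between these libraries, which may be technical. Counts on genes ran from 18622267 to 18828495 per library, and 15298 genes passed the filter on low counts. Normalized counts below are scaled to the mean library size, and a gene was called when its adjusted p was under 0.05 and its log2 fold change at least 1 in size.

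NAD carries electrons in metabolism and is also consumed as a substrate, so cells must keep making it. It is made from nicotinamide (through NAMPT), from nicotinic acid (NAPRT, then NADSYN1), from nicotinamide riboside (NMRK1 and NMRK2) and from tryptophan (the kynurenine route, which ends at QPRT). All of these routes pass through the NMNAT enzymes, which join a mononucleotide to an adenylate. NMNAT1 is nuclear, NMNAT2 sits on Golgi and transport vesicles in the cytoplasm and is known as a labile survival factor of axons, and NMNAT3 is mitochondrial. SARM1 is an NAD-cleaving enzyme that acts when NMNAT2 is lost from an axon, and NNMT methylates nicotinamide and so takes it out of the salvage cycle.

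The bases just upstream of start sites are shown for NMNAT2, which has 2 RefSeq start sites, for NMNAT3 and for QPRT. NMNAT3, a relative of NMNAT2, was higher in VPA-treated cells at an edgeR adjusted p under 0.05 but not at a DESeq2 one. QPRT had the largest difference among the genes other than NMNAT2. NMNAT3 and QPRT also have 2 RefSeq start sites each, and the outer one is printed. Each sequence is the 250 bases before a start site in RefSeq on GRCh38.p14, written 5′ to 3′ on the gene's own strand. RefSeq promoters were matched for 7 of the 10 genes, and NAPRT, NMRK1 and NNMT had none in the table used. Capitals mark TGACG, which is part of the cyclic AMP response element, and the GC box GGGCGG, each on either strand and with overlapping matches counted.
NMNAT2 outer start, chr1:183418381-183418630, minus strand: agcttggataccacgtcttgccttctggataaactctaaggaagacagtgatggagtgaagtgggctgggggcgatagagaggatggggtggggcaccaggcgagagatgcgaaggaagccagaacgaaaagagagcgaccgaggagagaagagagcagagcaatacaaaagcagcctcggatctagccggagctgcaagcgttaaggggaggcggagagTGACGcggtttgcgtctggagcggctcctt
NMNAT2 inner start, chr1:183304875-183305124, minus strand: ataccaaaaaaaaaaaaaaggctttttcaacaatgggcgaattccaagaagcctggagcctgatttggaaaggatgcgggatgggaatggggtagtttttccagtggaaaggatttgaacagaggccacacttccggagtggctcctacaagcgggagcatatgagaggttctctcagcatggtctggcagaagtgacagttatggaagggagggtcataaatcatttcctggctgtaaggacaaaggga
NMNAT3, chr3:139678051-139678300, minus strand: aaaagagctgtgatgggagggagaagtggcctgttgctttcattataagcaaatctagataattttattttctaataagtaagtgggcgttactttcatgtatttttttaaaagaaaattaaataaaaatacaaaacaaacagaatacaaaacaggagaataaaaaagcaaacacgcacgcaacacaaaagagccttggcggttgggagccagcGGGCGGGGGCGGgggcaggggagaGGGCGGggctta
QPRT, chr16:29678758-29679007, plus strand: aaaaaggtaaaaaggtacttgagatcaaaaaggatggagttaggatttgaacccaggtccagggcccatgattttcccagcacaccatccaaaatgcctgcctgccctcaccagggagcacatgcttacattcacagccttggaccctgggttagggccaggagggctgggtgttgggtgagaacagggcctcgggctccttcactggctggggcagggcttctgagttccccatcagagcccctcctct

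The outer NMNAT2 window held 15 CpG dinucleotides, 56.8% G or C, 1 TGACG and no GC box. The inner window, which lies inside the gene, held 4 CpG, 46.8% G or C and neither motif. Over 35116 RefSeq windows of the same length, the medians were 11 CpG and 58.0% G or C, TGACG was present in 21.2% and the GC box in 42.6%. The 2 NMNAT2 windows thus lay on either side of the median in CpG. The printed NMNAT3 window held 8 CpG and 3 GC boxes, and that of its other start held 14 CpG and 6 GC boxes. The 2 NMNAT3 windows share bases that hold the 3 GC boxes of the printed one, and the QPRT windows overlap as well. The printed QPRT window held 1 CpG, 55.6% G or C and neither motif, and that of its other start held 2 CpG, 66.4% G or C and neither motif. These matches describe the letters in the windows only. The counts are per gene, so the 2 NMNAT2 start sites could not be told apart in expression.

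NMNAT2 stood at chr1:183248237-183418380 on the minus strand. Without treatment its normalized counts were 19.7, 33.5 and 19.9, and with VPA they were 371, 431 and 420. The groups were far apart, with the lowest VPA-treated library more than an order of magnitude above the highest untreated one. The means were 24.4 ± 7.90 (SD, n = 3) and 407 ± 31.9 (SD, n = 3), a log2 fold change of 4.06 (SE 0.14, 95% interval 3.77 to 4.35) or 16.6-fold. These values chose the gene. Among the 11065 tested genes with a mean normalized count of at least 100, its log2 fold change ranked 3, and among all 15298 tested genes it ranked 58. By level it was a modest gene, with rank 9612 of 15298 by mean normalized count. It had 1343 counts over the 6 libraries.

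**Figure D1:**
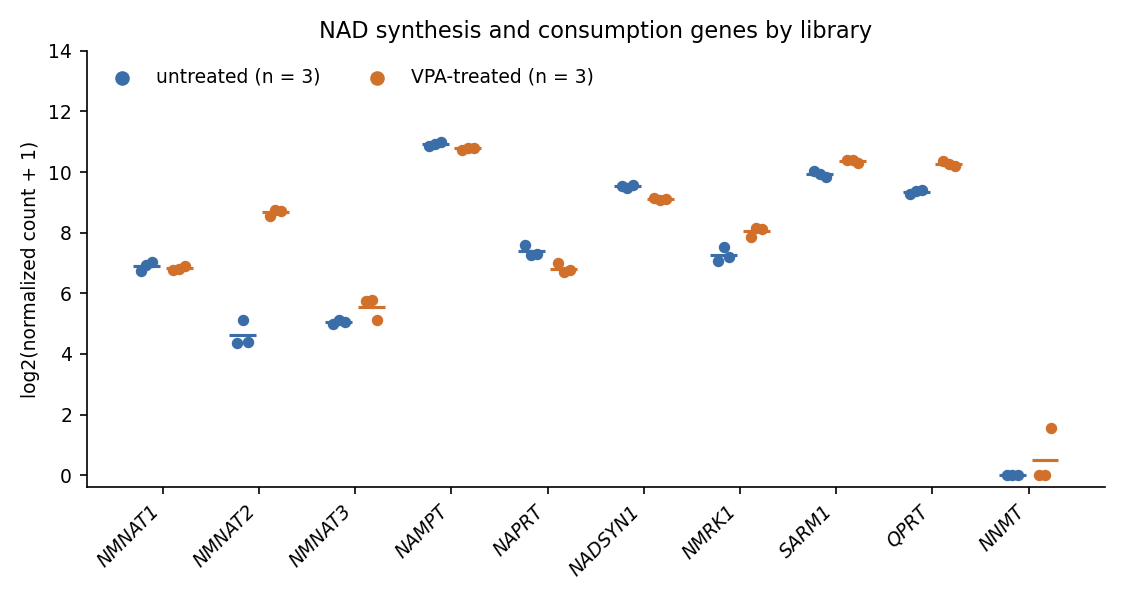
Normalized counts of the 10 genes in each library, as log2(normalized count + 1) on the y axis, with 1 point per library, a bar at the mean of the points, untreated in blue and VPA-treated in orange (n = 3 each). NMNAT2 moves from 19.7 to 33.5 up to 371 to 431, NMNAT1 overlaps between the groups, and NNMT lies at or near 0.

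The other NMNAT genes had much smaller differences than NMNAT2. NMNAT1 (chr1:9942923-9996892, plus strand) had normalized counts of 107, 120 and 130 in untreated and 109, 112 and 120 in VPA-treated libraries. The groups overlapped, and the log2 fold change was -0.068 (SE 0.11, 95% interval -0.30 to 0.17, edgeR adjusted p = 0.624). NMNAT3 (chr3:139560180-139678050, minus strand) had normalized counts of 31.1, 33.5 and 32.5 in untreated libraries and 52.7, 53.9 and 33.5 in VPA-treated libraries. VPA-treated replicate 3 stood level with the highest untreated library, while the other two VPA-treated libraries were clearly above. The log2 fold change of NMNAT3 was 0.53 (SE 0.20, 95% interval 0.11 to 0.95, edgeR adjusted p = 0.0269). That pass was fragile. DESeq2 gave an adjusted p of 0.169, and leaving out any 1 library other than VPA-treated replicate 3 raised the edgeR adjusted p to between 0.0508 and 0.129. Only 239 counts in all stood behind this gene.

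Per kilobase of the Ensembl canonical transcript, the makeup of the NMNAT family differed between the conditions. The summed level of the 3 genes was 52.4 ± 4.19 normalized counts per kb (SD, n = 3) in untreated and 128 ± 6.50 (SD, n = 3) in VPA-treated cells. NMNAT2 made up 7.61%, 11.2% and 6.71% of the sum without treatment and 55.2%, 58.3% and 61.4% with VPA. The leading member was NMNAT1 in each untreated library, at a mean of 60.9% of the sum, and NMNAT2 in each VPA-treated library. NMNAT1 made up 23.7% there, although its own level per kb was 31.9 ± 3.17 and 30.4 ± 1.46 (SD, n = 3). With the union of all exons as the length, NMNAT2 made up 11.0% and 67.5% of the sum. These shares rest on the difference that chose NMNAT2 and are a description. They are shares of transcripts, not of enzyme.

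**Figure D2:**
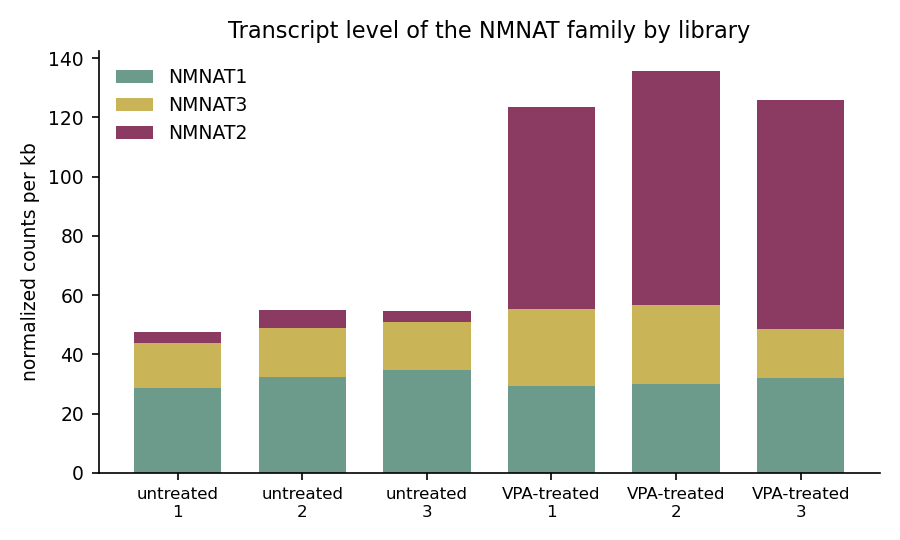
Normalized counts per kb of canonical transcript for NMNAT1, NMNAT3 and NMNAT2, stacked, in each of the 3 untreated and 3 VPA-treated libraries. NMNAT2 grows from 6.71% to 11.2% of the stack to 55.2% to 61.4% of it, while the NMNAT1 block keeps about the same height.

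Among the 8 tested genes other than NMNAT2, none was called by edgeR in either direction. Over all tested genes, 12.0% were called higher and 0.503% lower. DESeq2 also called none of them. At an adjusted p under 0.05 alone, 4 were higher in VPA-treated cells (QPRT, NMRK1, NMNAT3 and SARM1), 3 were lower (NAPRT, NADSYN1 and NAMPT) and 1 was neither (NMNAT1), with the same counts at an unadjusted p under 0.05. The background at that threshold was 32.9% higher and 30.0% lower, since small differences passed in well-counted genes. The median log2 fold change of the 8 genes was 0.18, against 0.0058 over all tested genes.

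**Figure D3:**
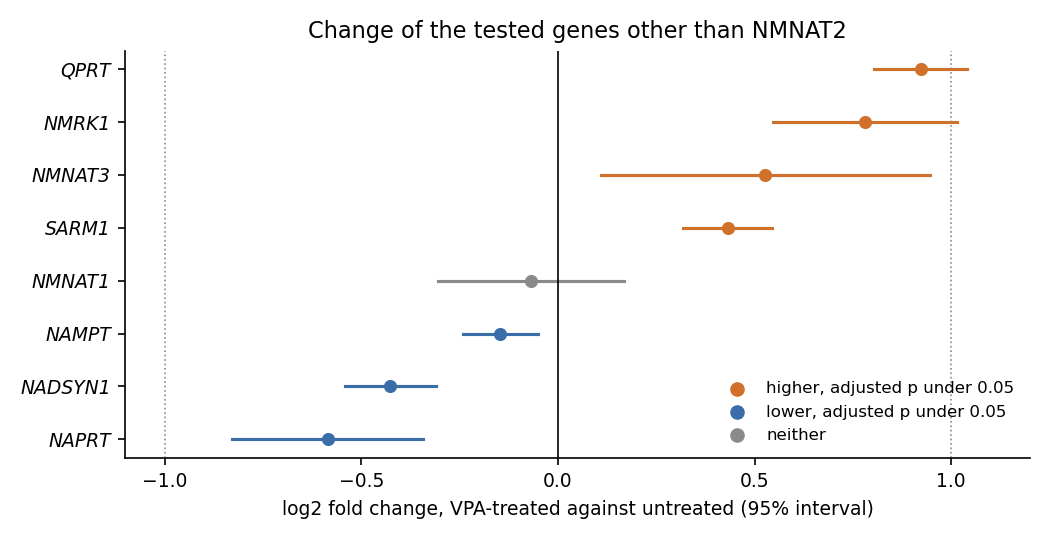
Log2 fold change of VPA-treated against untreated cells for the 8 tested genes other than NMNAT2, each point with its 95% interval; orange and blue mark an edgeR adjusted p under 0.05 (higher and lower), grey neither, and dotted lines stand at -1 and 1. QPRT at 0.92 and NAPRT at -0.59 lie at the ends, and no point passes a dotted line.

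The nicotinamide route was slightly lower. NAMPT (chr7:106248298-106285888, minus strand), which makes nicotinamide mononucleotide and limits the rate of salvage, had normalized counts of 1862, 1926 and 2041 in untreated and 1708, 1769 and 1789 in VPA-treated libraries. The groups did not overlap, but the log2 fold change was only -0.15 (SE 0.046, 95% interval -0.24 to -0.052, edgeR adjusted p = 0.00818). This small difference was lost with library totals as the scaling (log2 fold change -0.015, edgeR adjusted p = 0.789), with upper quartile scaling (-0.081, adjusted p = 0.136) and without untreated replicate 3 (-0.12, adjusted p = 0.0501).

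Both genes of the nicotinic acid route fell. NAPRT (chr8:143572874-143578330, minus strand), which turns nicotinic acid into its mononucleotide, had normalized counts of 194, 154 and 156 in untreated and 126, 103 and 107 in VPA-treated libraries. Every VPA-treated library lay below every untreated one, and the log2 fold change was -0.59 (SE 0.12, 95% interval -0.83 to -0.34, edgeR adjusted p = 1.73e-04). NADSYN1 (chr11:71453203-71501816, plus strand), which makes the last, amidating step of this route and of the tryptophan route, had normalized counts of 749, 717 and 759 in untreated and 559, 542 and 554 in VPA-treated libraries. Its replicates were tight, and the log2 fold change was -0.43 (SE 0.056, 95% interval -0.54 to -0.31, edgeR adjusted p = 9.16e-07).

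The riboside kinase rose. NMRK1 (chr9:75060577-75088155, minus strand), which phosphorylates nicotinamide riboside, had normalized counts of 134, 185 and 146 in untreated and 232, 287 and 280 in VPA-treated libraries. The groups were apart despite an SD of 27.0 among the untreated libraries, and the log2 fold change was 0.78 (SE 0.11, 95% interval 0.55 to 1.01, edgeR adjusted p = 4.23e-06).

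The last gene of the tryptophan route rose as well. QPRT (chr16:29679008-29698699, plus strand) turns quinolinic acid into nicotinic acid mononucleotide. Its normalized counts were 619, 658 and 675 in untreated and 1314, 1225 and 1161 in VPA-treated libraries, with no overlap. The log2 fold change was 0.92 (SE 0.057, 95% interval 0.80 to 1.04, edgeR adjusted p = 7.86e-12), a rise of 1.90-fold that stayed just under the call threshold. With library totals as the scaling it was 1.05 and was called. SPN overlaps QPRT on the same strand in GENCODE 44, and reads shared by both could have been set aside in the counting.

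The NAD-cleaving enzyme SARM1 (chr17:28371694-28404049, plus strand) rose as well. Its normalized counts were 1039, 968 and 905 in untreated and 1339, 1335 and 1255 in VPA-treated libraries, a log2 fold change of 0.43 (SE 0.054, 95% interval 0.32 to 0.54, edgeR adjusted p = 4.99e-07). SLC46A1 on the opposite strand overlaps it by 9408 bases, with 7862 counts over the 6 libraries. The kit kept strand but the strand setting of the counting is not given in the sources used here, so reads in that overlap cannot be assigned with certainty. Set against SARM1, NMNAT2 stood at 4.76 ± 1.57 per 100 SARM1 transcripts per kb (SD, n = 3) in untreated cells and 58.8 ± 5.75 (SD, n = 3) in VPA-treated cells. That ratio, too, follows from the difference that chose NMNAT2.

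NNMT (chr11:114257806-114313536, plus strand) was not detectable at this depth in most libraries. It had 0 counts in the 3 untreated libraries, which allows up to 3 counts each, and 0, 0 and 2 counts in the VPA-treated ones. No fold is given, and it was not tested.

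The order of the genes by level per kb was led by NAMPT in untreated cells (446 ± 20.7 normalized counts per kb, SD, n = 3), followed by QPRT (296 ± 13.0) and NADSYN1 (277 ± 8.15). QPRT and NADSYN1 overlapped between libraries, as did NAPRT (99.9 ± 13.2), SARM1 (94.5 ± 6.55) and NMRK1 (88.3 ± 15.4) among each other. NMNAT1 (31.9 ± 3.17), NMNAT3 (16.0 ± 0.607) and NMNAT2 (4.48 ± 1.45) came next, each clear of its neighbour. In VPA-treated cells QPRT led (561 ± 34.8), clear of NAMPT (403 ± 9.75) and NADSYN1 (206 ± 3.16). NMRK1 (152 ± 17.1) and SARM1 (127 ± 4.59) were followed by NMNAT2 (74.8 ± 5.87) and NAPRT (66.6 ± 7.10), whose libraries overlapped. NMRK1 and SARM1 were separated by less than the range of the NMRK1 libraries. NMNAT1 (30.4 ± 1.46) and NMNAT3 (23.1 ± 5.66) came last of the detected genes, with every NMNAT3 library below every NMNAT1 library. NMNAT3 was lowest in VPA-treated replicate 3. The order depends on the length used. With the union of all exons, 4 of the 10 genes kept their rank in untreated and 5 in VPA-treated cells.

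The wider NAD pathway was read from 6 lists of 51 genes, of which 41 were tested. Of these, 3 were called higher (NMRK2, NT5E and KYNU) and none lower, with 12 lower at an unadjusted p under 0.05 and none called lower by DESeq2. At an adjusted p alone 10 were higher, 12 lower and 19 neither, against a background of 12.0% called higher, 32.9% higher and 30.0% lower over all tested genes, and the median log2 fold change was -0.026. The split depends on the scaling. With library totals, where the median over all tested genes was 0.14, 19 were higher and 5 lower, and with upper quartile scaling, with a median of 0.071, 13 were higher and 7 lower.

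The genes called higher were at low levels in untreated cells. NMRK2 and KYNU passed the filter on low counts only through the VPA-treated libraries, so their entry to the test depended on the rise itself. NT5E met the count minimum in part of the untreated libraries, but needed VPA-treated libraries as well to pass. NMRK2, the riboside kinase known from muscle, had normalized counts of 4.14, 3.14 and 3.15 in untreated and 75.7, 63.6 and 75.6 in VPA-treated libraries. This was a log2 fold change of 4.32 (SE 0.27, edgeR adjusted p = 1.13e-11), so that both riboside kinases were higher, NMRK2 from a much lower base than NMRK1. NT5E, a surface nucleotidase that can take the phosphate off nicotinamide mononucleotide, had normalized counts of 12.5 ± 3.82 (SD, n = 3) and 115 ± 6.92 (SD, n = 3), a log2 fold change of 3.19 (SE 0.19, edgeR adjusted p = 4.10e-12). KYNU, which cleaves kynurenines upstream of QPRT, had normalized counts of 8.28, 5.23 and 1.05 in untreated and 9.58, 11.6 and 16.3 in VPA-treated libraries. With 53 counts in all it passed only narrowly, at a log2 fold change of 1.33 (SE 0.46, edgeR adjusted p = 0.0148). It no longer passed in DESeq2 (adjusted p = 0.0964), without VPA-treated replicate 3 (edgeR adjusted p = 0.0803) or without untreated replicate 3 (0.0974).

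**Figure D4:**
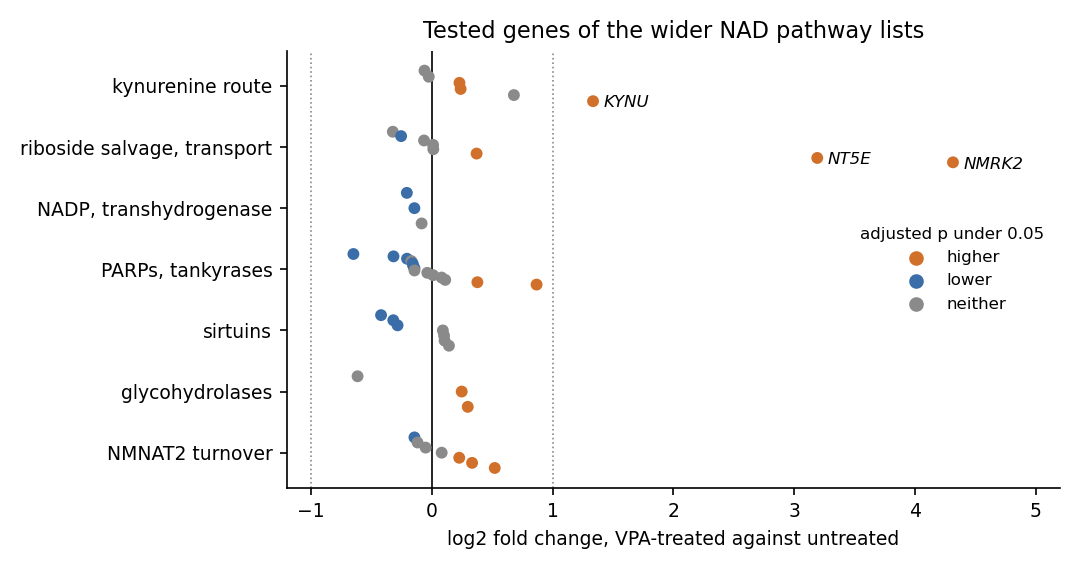
Log2 fold change of VPA-treated against untreated cells for each tested gene of the 6 NAD lists and of the NMNAT2 turnover list, 1 point per gene; orange and blue mark an edgeR adjusted p under 0.05 (higher and lower), grey neither, and dotted lines stand at -1 and 1. NMRK2 (4.32), NT5E (3.19) and KYNU (1.33) are named, and the other points lie between the dotted lines.

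The rest of the kynurenine route was mostly silent or little changed. Of its 11 listed genes 6 were tested. At an adjusted p alone 3 were higher (KYNU, AFMID and KYAT3) and none lower, beside 32.9% and 30.0% of all tested genes. IDO1 and IDO2, which open the route, had 0 counts in every library, TDO2 had 18 counts in all and KMO 2. QPRT was therefore measured at a high level in cells in which the first enzymes of its route were at or near 0. In the list of riboside salvage and precursor transport, 8 of 9 genes were tested. SLC29A2, a nucleoside transporter, was higher at an adjusted p alone (log2 fold change 0.37, edgeR adjusted p = 1.96e-05) beside NMRK2 and NT5E, and the nucleotidase gene NT5C2 was lower (-0.26, edgeR adjusted p = 2.32e-04). SLC25A51, the mitochondrial NAD carrier, had a log2 fold change of -0.065 (SE 0.073, edgeR adjusted p = 0.454).

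The differences of the consumers were small, and none was called. Of 17 PARP and tankyrase genes, most of which attach ADP-ribose taken from NAD, 14 were tested. At an adjusted p alone 2 were higher and 6 lower, beside 32.9% and 30.0% of all tested genes. The median log2 fold change of the 14 was -0.14. With library totals 5 were higher and 2 lower. The strongest fall was that of PARP3, a DNA break sensor, from normalized counts of 212 ± 8.70 (SD, n = 3) to 135 ± 9.59 (SD, n = 3), a log2 fold change of -0.65 (SE 0.095, edgeR adjusted p = 4.36e-06). PARP1, the main consumer of NAD after DNA damage, was by far the most counted gene of the pathway, at 47535 ± 1546 and 38128 ± 605 (SD, n = 3), and fell by 0.32 on the log2 scale (SE 0.044, edgeR adjusted p = 1.88e-06). PARP10, with 60 counts in all, had a log2 fold change of 0.87 (SE 0.37, edgeR adjusted p = 0.0461) that depended on single libraries. The gene entered the test only through its VPA-treated libraries, so its entry depended on the rise itself. It no longer passed in DESeq2, with the replicate block (edgeR adjusted p = 0.0509), without a filter (0.0861) or without VPA-treated replicate 1 (0.100), VPA-treated replicate 2 (0.169), untreated replicate 2 (0.162) or untreated replicate 3 (0.117), and it was called without VPA-treated replicate 3 (1.04) or untreated replicate 1 (1.13). All 7 sirtuins, the NAD-dependent deacylases, were tested, and 3 were lower and none higher at an adjusted p alone. SIRT7 had the largest difference (log2 fold change -0.42, SE 0.067, edgeR adjusted p = 1.32e-05), followed by SIRT1 at -0.32 (edgeR adjusted p = 5.32e-06) and SIRT5 at -0.28 (edgeR adjusted p = 0.00243), while with library totals 3 others were higher and SIRT5 no longer passed.

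Of 4 glycohydrolases and ectoenzymes 3 were tested, and 2 were higher at an adjusted p alone, beside 32.9% of all tested genes. ENPP1, which can split extracellular NAD, had the larger rise, a log2 fold change of 0.30 (SE 0.058, edgeR adjusted p = 1.37e-04). CD38, a major NAD glycohydrolase of immune cells, had 13 counts in all and was not tested. The 3 genes that make or use NADP had a median of -0.15, and NNT, the mitochondrial transhydrogenase, had a log2 fold change of -0.21 (SE 0.042, edgeR adjusted p = 2.01e-04) that no longer passed with library totals.

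NMNAT2 is known as a short-lived protein, and 8 genes tied to its turnover and to axon loss were listed, of which 7 were tested and none called by edgeR, while DESeq2, which tested all 8, called 1 higher (STMN2). At an adjusted p alone 3 were higher and 1 lower, beside 32.9% and 30.0% of all tested genes. With library totals none was lower. MYCBP2, the ubiquitin ligase that targets NMNAT2, had normalized counts of 5218 ± 160 and 6572 ± 138 (SD, n = 3), a log2 fold change of 0.33 (SE 0.040, edgeR adjusted p = 2.67e-07). Its partner FBXO45 rose by 0.23 on the log2 scale (SE 0.055, edgeR adjusted p = 0.00114). MAP3K12, the kinase that starts the axon injury signal, had the largest difference of the list (0.52, SE 0.11, edgeR adjusted p = 2.00e-04). MAPK8, a kinase further down the same signal, was lower (-0.14, SE 0.060, edgeR adjusted p = 0.0395), but not in DESeq2 or with upper quartile scaling. ZDHHC17, which attaches NMNAT2 to membranes, had a log2 fold change of -0.052 (SE 0.057, edgeR adjusted p = 0.439). STMN2, another labile axon protein, had counts of 1, 1 and 0 in untreated and 11, 7 and 4 in VPA-treated libraries and was not tested by edgeR.

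The genes around NMNAT2 showed no difference of its size. Of 15 listed genes within 500 kb of it, 8 were tested, and edgeR and DESeq2 called none. Among the 15, 4 had 0 counts in every library. Over all tested genes edgeR called 12.0% higher, and at an adjusted p alone 32.9% were higher and 30.0% lower. Of the 8 tested neighbours, 3 were higher and 3 lower at an adjusted p alone, and likewise at an unadjusted p under 0.05. With library totals 4 were higher and 1 lower. RGL1, a guanine nucleotide exchange factor of Ral, had the largest difference, from normalized counts of 210 ± 16.1 to 395 ± 15.6 (SD, n = 3), a log2 fold change of 0.91 (SE 0.079, 95% interval 0.75 to 1.08, edgeR adjusted p = 1.81e-09). With library totals RGL1 reached 1.05 and was called. NPL, a sialic acid lyase, was higher (0.71, SE 0.079, edgeR adjusted p = 8.47e-08), and so was the actin branching gene ARPC5 (0.17, SE 0.039, edgeR adjusted p = 7.11e-04). Lower were the helicase gene DHX9 (-0.42, SE 0.042, edgeR adjusted p = 1.80e-08) and the laminin gene LAMC1 (-0.10, SE 0.040, edgeR adjusted p = 0.0323). LAMC1 no longer passed with library totals (0.031, edgeR adjusted p = 0.496) or upper quartile scaling (-0.036, edgeR adjusted p = 0.465). Nor did it pass in most of the fits that left out a library. DHX9-AS1 had a log2 fold change of 0.18 (SE 0.23, edgeR adjusted p = 0.522). Within 250 kb, 10 genes were listed, 3 of them with 0 counts in every library, 5 were tested and none was called.

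The tested genes whose level over the 6 libraries was closest to that of NMNAT2 were found among the 11065 genes with a mean normalized count of at least 100. The measure was the root mean square difference of log2 CPM, each gene centred on its untreated mean. The closest were CRMP1 (0.229), KCNH3 (0.341), NOVA2 (0.390), CD24 (0.426) and PRKCB (0.502). CRMP1, a collapsin response mediator of growing axons, went from 18.8 ± 1.73 to 303 ± 20.4 normalized counts (SD, n = 3), and NOVA2, a splicing factor known from neurons, from 77.6 ± 1.99 to 924 ± 20.3 (SD, n = 3). KCNH3 encodes a voltage-gated potassium channel, PRKCB a protein kinase C, and CD24 a surface protein with near-identical copies in the genome, so its counts are uncertain. By Pearson correlation the 5 closest genes shared 0 of 5 with this list, and 361 of the 11065 genes had an r of at least 0.99 with NMNAT2 over the same 6 libraries, which fall into only 2 conditions.

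Markers of other cell types moved with the same libraries. In a list of 10 neuron markers 8 were tested, all 8 were higher at an adjusted p alone, and 7 were called. Over all tested genes 32.9% were higher at an adjusted p alone and 12.0% were called higher. The summed normalized count of the neuron list was 5598 to 5929 in untreated and 10965 to 11683 in VPA-treated libraries. Most of it was NEFM, with means of 4348 in untreated and 7952 in VPA-treated libraries. SYP and DCX were listed at 0 throughout. Called were the splicing factor RBFOX3 (log2 fold change 2.10), the microtubule genes MAP2 (1.81) and TUBB3 (1.37), the vesicle release genes SNAP25 (3.05) and SYT1 (1.09), the neurofilament gene NEFL (1.06) and GAP43. GAP43, a growth cone protein, had a log2 fold change of 2.88 (SE 0.10, edgeR adjusted p = 1.04e-15). NEFM, the most counted of them, had one of 0.87 (SE 0.042, edgeR adjusted p = 1.24e-13). Of 8 embryonic kidney and epithelial markers 7 were tested. At an adjusted p alone 5 were higher and 2 lower, and the 3 called were all higher, the renal transcription factor PAX2 (log2 fold change 2.26), the keratin KRT8 (1.37) and the intermediate filament gene NES (2.01). The list had a summed normalized count of 13508 to 13840 in untreated and 12859 to 13518 in VPA-treated libraries, and PAX8 had 2 counts in all. Most of that sum was VIM, with means of 10739 in untreated and 8931 in VPA-treated libraries. VIM was among the 2 lower genes. Markers of other cell types (7 listed, 3 tested) summed to 25.9 to 29.4 and 304 to 315, most of it LUM, and the 3 tested were called higher, the connective tissue genes LUM (log2 fold change 3.25) and DCN (5.19) and the endothelial gene VWF (3.79). SNAP25, DCN and VWF passed the filter on low counts only through their VPA-treated libraries. Whether any of the listed markers had a part in the values of NMNAT2 and its relatives was not tested. In bulk RNA more transcript per cell and more cells with the transcript cannot be told apart.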

How the data were processed

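RNA-seq of 3 untreated and 3 VPA-treated HEK293T libraries was analysed. Reads had been cleaned by the authors (SOAPnuke), placed on hg38 by STAR and assigned to genes by htseq-count, versions 2.7.10b and 2.0.1 in the submitters' processing notes, and the deposited values are raw counts under gene symbols. The annotation and strand setting of the counting are not given in the sources used here. The 5 summary lines were left out, and reads on no gene were 6.80% to 7.69% of those listed.

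Testing used edgeR 4.0.16 under R 4.3.3 (TMM, filterByExpr with a count minimum of 10, robust quasi-likelihood fit on condition alone, prior count 0.125), with Benjamini-Hochberg adjustment over 15298 genes. A standard error is a log2 fold change over the root of its F. Alternatives were DESeq2 1.42.0, other scalings, filters and prior count, a replicate block and leaving out each library. On simulated counts edgeR called 197 of 200 changed genes over 15066. Those 200 genes were given larger differences than any member other than NMNAT2 had, and all other genes were given none. The simulation therefore does not show how well small differences are found. Lengths and strands are from GENCODE 44, coordinates and promoters from RefSeq on GRCh38.p14.

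The members and lists were chosen with earlier results of these data known. Named were all 10 members, the called genes of each list (with fewer than 2 called, also the largest difference at an adjusted p alone), the tested neighbours (some are not reported here) and the 5 genes most like NMNAT2. Other genes named were chosen after their values were seen.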

Additional observations from a re-analysis of the deposited data

How the results depend on the processing

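Over 126 comparisons of the 9 tested members with an alternative, 116 kept their direction and their side of an adjusted p of 0.05, and 10 did not. NMNAT2 supplied 14 of the 126, and because its rise chose it these are no check of that rise. NMNAT1 turned from -0.068 to 0.064 with library totals (edgeR adjusted p = 0.644), passing in neither. The log2 fold change of NMNAT2 ran from 3.92 to 4.35 over the fits that left out 1 library, the highest without untreated replicate 2. With library totals, 1 member other than NMNAT2 (QPRT, which passed the fold threshold at 1.05) and 1 neighbour (RGL1) were called higher, 19 NAD-linked genes were higher and 5 lower at an adjusted p alone, and 38 genes in all were called lower. With upper quartile scaling, 7 NAD-linked genes were lower. With at least 10 counts in every library, 0 NAD-linked genes were called higher, because NMRK2, NT5E and KYNU were then not tested, and 1179 genes in all were called higher and 43 lower. Without a filter, 1 neighbour was called higher (RGS8, with 7 counts in all) and 162 genes in all were called lower. Scaling moved the median log2 fold change from 0.0058 (TMM) to -0.0081 (DESeq2 size factors), 0.071 (upper quartile) and 0.14 (library totals), and the share of higher genes among those past an adjusted p alone from 52.3% to 50.3%, 63.0% and 73.9%.

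The replicate block left 0 members other than NMNAT2 called, 4 higher and 3 lower at an adjusted p alone, and 3 NAD-linked genes called higher, and it changed no member's call. Deviations of same-numbered libraries correlated at 0.139, 0.0214 and 0.0805, so the numbers were not taken as pairs. Each library other than untreated replicate 2 correlated best with the same-numbered library of the other group, a hint from the data and not from the design. Low counts limit NMNAT3 (239 counts), KYNU (53), PARP10 (60) and NNMT (2).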
